A study of Mus musculus with 24 samples.

Results

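The 7 genes Fkbp5, Tsc22d3, Sgk1, Zbtb16, Ddit4, Cdkn1a and Klf9 are widely used readouts of glucocorticoid signalling, which rises when animals are handled or stressed. The rule names the genes and uses no threshold on their values, and all 7 of 7 were found among the 57010 gene identifiers of both count tables. All 7 also passed the filter on low counts in both batches. Each was measured in 24 messenger RNA sequencing libraries made from total RNA of the olfactory epithelium of male wild-type C57BL/6J mice aged 8 weeks. All mice, controls included, were housed alone in odor-free chambers for 4 h and then had 90 min with a filter paper that carried 10 µL of undiluted odorant or nothing. The AD batch held 3 mice per group with no odor (AD control), acetophenone, which is a ketone with a benzene ring, the fatty aldehyde decanal, or the 1:1 mixture of both (AD mixture). The OC batch held 3 mice per group with no odor (OC control), octanal, a fatty aldehyde of shorter chain, the leaf alcohol cis-3-hexenol, or their 1:1 mixture (OC mixture). The labels call the replicates biological, give no time of day, and give the isolation to controls and exposed mice alike, so isolation itself was not compared with anything here.

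Corticosterone, the main glucocorticoid of mice, enters cells and binds the glucocorticoid receptor, which the chaperone HSP90 and its partners hold ready in the cytoplasm. The bound receptor moves to the nucleus and attaches to DNA elements made of a pair of half-sites that face each other, from which it raises nearby genes within minutes to hours. Mineralocorticoid receptors bind the same hormone and the same elements, and the enzymes Hsd11b1 and Hsd11b2 make or inactivate the hormone inside the cell. The olfactory epithelium holds sensory neurons, glia-like sustentacular cells and basal stem cells, lies on bone and is rich in blood vessels.

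Sgk1 and Tsc22d3 are shown here by sequence because they were the members whose promoter windows held the receptor's half-site. RefSeq start sites of build GRCm38.p6 gave 14 windows of 300 bases for 6 of the 7 members, and none for Zbtb16. The half-site AGAACA was searched on both strands, and the full element was taken as the half-site, any 3 bases and its reverse complement. Among all 32851 promoter windows, 19% held the half-site, 1.84% held a full element with at most 2 mismatches, and 3 held an exact one. One of those 3 belonged to Sgk1, at chr10:21993640-21993939 on the plus strand, with the element starting at base -189 from the start site. Its 250 bases before the start site are printed first, with matches in capitals; the pair of half-sites inside the full element also count as half-site matches. The Tsc22d3 window at chrX:140600473-140600772 lies on the minus strand and held 1 half-site, at base -185.
Sgk1: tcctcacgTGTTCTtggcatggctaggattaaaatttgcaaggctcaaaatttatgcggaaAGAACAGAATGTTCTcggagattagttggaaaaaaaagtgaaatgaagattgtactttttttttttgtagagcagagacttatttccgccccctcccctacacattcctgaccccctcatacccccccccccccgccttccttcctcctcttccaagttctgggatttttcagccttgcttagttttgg
Tsc22d3: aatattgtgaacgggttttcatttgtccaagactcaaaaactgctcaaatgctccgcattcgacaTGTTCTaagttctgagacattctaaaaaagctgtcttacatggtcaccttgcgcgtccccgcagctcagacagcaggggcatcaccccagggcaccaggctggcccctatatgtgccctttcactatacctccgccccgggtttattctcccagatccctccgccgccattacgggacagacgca
The Sgk1 windows at chr10:21881934-21882233 and chr10:21991973-21992272 held 1 half-site each, and that at chr10:21985854-21986153 held a full element with 2 mismatches. No match to these letters was found in the windows of Fkbp5, Ddit4, Cdkn1a or Klf9. A match describes the letters and is not a bound site; elements of these genes outside the windows were not searched.

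Levels were compared as CPM (counts scaled to a common library size) after TMM scaling, which was done for each batch on its own. AD libraries held 20604861 to 24802512 counts and OC libraries 19003768 to 24531349. Omp, which marks mature sensory neurons, ran from 8880 to 13600 CPM over the libraries, and the sustentacular markers Cyp2a5 and Ugt2a1 were at 2320 CPM or more in each. Hemoglobin, marrow, bone and leukocyte transcripts were present in all groups as well, so the tissue was a mixture. OC control 3 stood apart over all genes: the chi-square per gene between replicates was 112 and 87.6 between it and OC controls 1 and 2, and at most 38.9 in every other pair of a group. All 3 OC exposures are compared with this mouse among their controls, so values without it are given beside the member calls that it ends. In such bulk RNA, fewer cells of a type and less RNA per cell cannot be told apart.

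Per kilobase of the longest transcript in the AD control, the members ran in level from Tsc22d3 at 74.8 CPM per kb through Cdkn1a at 52.5, Sgk1 at 42.1, Klf9 at 14.4, Fkbp5 at 9.29 and Ddit4 at 7.23 to Zbtb16 at 0.327. Which of the first 3 led depended on the length used, since per kilobase of the median transcript Sgk1 stood at 174, Tsc22d3 at 129 and Cdkn1a at 93.1 CPM per kb. Zbtb16 was near the floor of the assay, with 15 to 111 counts per library. The other 6 had at least 175 counts in every library.

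**Figure D1:**
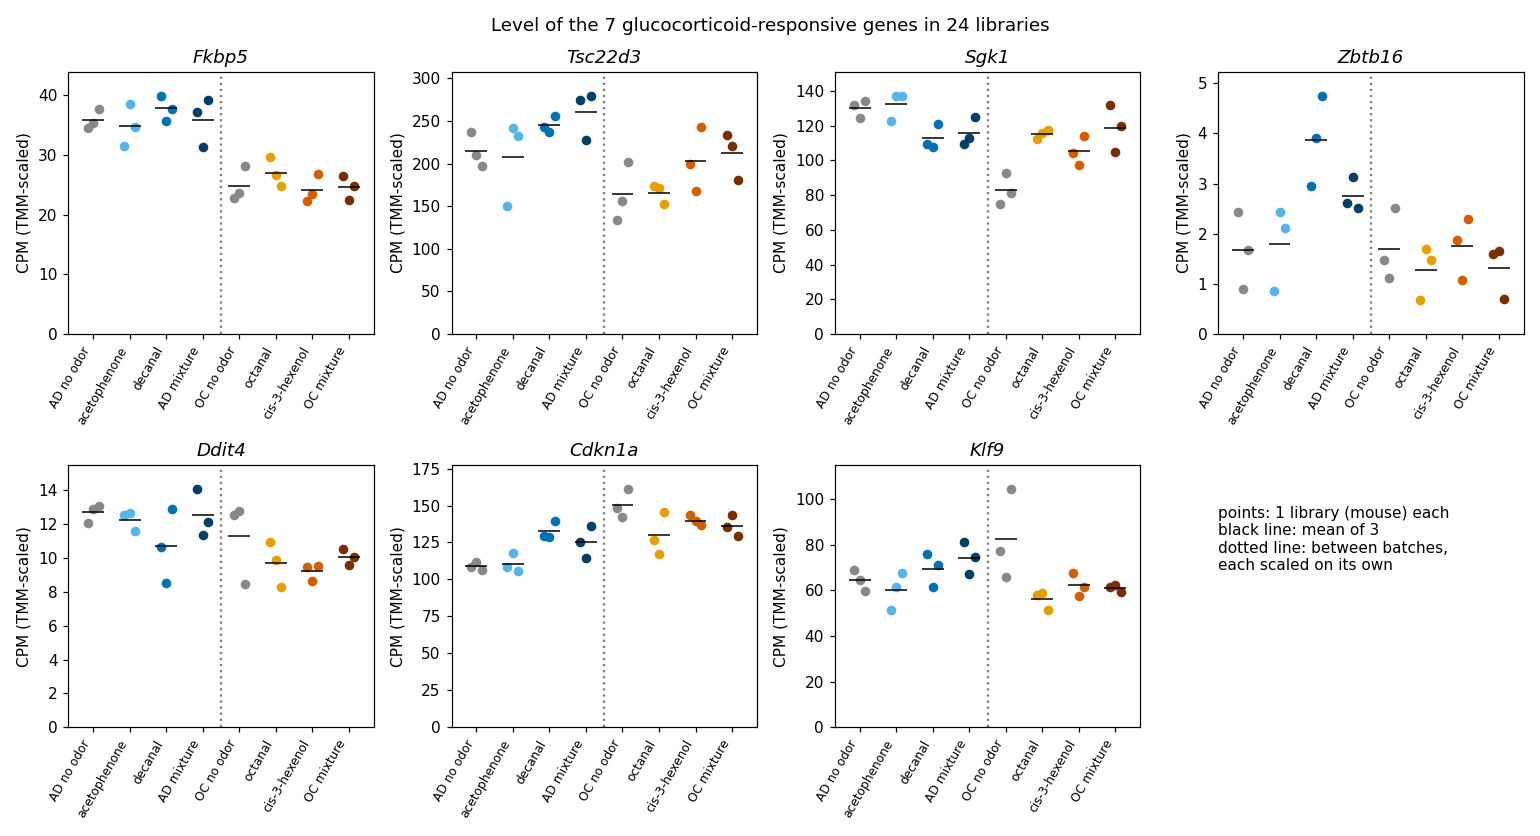
Level of each member in CPM (vertical axis, from 0) in the 8 groups (horizontal axis), with 1 point per mouse and a black line at the mean of 3. Sgk1 in the OC control (74.95 to 92.6 CPM) lay below all 9 exposed mice of that batch, Klf9 there reached 104 CPM in 1 mouse, and Zbtb16 was highest after decanal (2.96 to 4.75 CPM).

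Fkbp5 (ENSMUSG00000024222) encodes a co-chaperone of HSP90 that lowers the receptor's affinity for hormone, and it is among the most sensitive readouts of glucocorticoids in rodent tissue. In the AD batch its CPM values were 34.5, 35.4 and 37.7 in the control mice, 31.5, 38.5 and 34.7 after acetophenone, 39.9, 35.7 and 37.7 after decanal, and 37.1, 31.3 and 39.2 after the mixture. Every exposed group overlapped the control. In the OC batch they were 22.75, 23.6 and 28.2 without odor, 29.6, 26.6 and 24.8 after octanal, 22.3, 23.5 and 26.7 after cis-3-hexenol, and 26.5, 22.5 and 24.85 after the mixture. These groups overlapped too, and no comparison called Fkbp5: its 6 log2 fold changes against control lay between -0.04 and 0.12, with adjusted p from 0.413 to 0.986. The 95% intervals reached from -0.26 to 0.34 at their widest, so a change of more than 0.34 on the log2 scale in either direction lay outside all 6. The level was lower throughout the OC batch, but the batches were scaled separately and that difference was not tested.

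Tsc22d3 (ENSMUSG00000031431), also called GILZ, encodes a leucine-zipper protein that carries much of the anti-inflammatory action of glucocorticoids. Among AD mice it stood at 238, 210 and 197 CPM without odor, at 150, 242 and 232 after acetophenone, at 243, 237 and 255.5 after decanal, and at 274.5, 228 and 280 after the mixture. The mouse at 150 CPM was the lowest of that batch, while decanal and mixture mice sat at the upper end of the control range or above it. Among OC mice it stood at 134, 156 and 202 CPM without odor, at 173, 172 and 153 after octanal, at 200, 168 and 243 after cis-3-hexenol, and at 233, 221 and 181 after the mixture. The log2 fold change was 0.37 ± 0.14 (SE, n = 3 against 3, adjusted p = 0.0747) for the OC mixture, 0.31 ± 0.14 (adjusted p = 0.176) for cis-3-hexenol and 0.28 ± 0.13 (adjusted p = 0.165) for the AD mixture, and none was called. The OC control was wide, and single libraries decided the OC calls. Without OC control 3, the mouse at 202 CPM, Tsc22d3 passed for the OC mixture (log2 0.55, adjusted p = 0.011) and for cis-3-hexenol (log2 0.5, adjusted p = 0.039), and without OC mixture 3 it passed for that mixture (log2 0.47, adjusted p = 0.046). When low-count genes were not removed, it passed for the AD mixture (adjusted p = 0.0013), cis-3-hexenol (0.0032) and the OC mixture (8.7e-05). That setting also called more genes for acetophenone, where the filtered fit called 1. It did so too for the AD mixture against decanal and cis-3-hexenol against octanal, where the filtered fit called 0.

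Sgk1 (ENSMUSG00000019970), the serum- and glucocorticoid-regulated kinase, keeps sodium channels at the cell surface by restraining the ubiquitin ligase Nedd4l. It moved in opposite directions in the 2 batches. In AD mice it stood at 132, 125 and 134 CPM without odor, at 123, 137 and 137 after acetophenone, at 109.5, 108 and 121 after decanal, and at 110, 113 and 125 after the mixture. Every decanal mouse lay below every control mouse, and the log2 level of Sgk1 fell by 0.21 (SE 0.063, adjusted p = 0.026). The mixture gave a log2 fold change of -0.17 ± 0.063 (adjusted p = 0.0686), which was not called in edgeR and was in DESeq2 (adjusted p = 0.0443), and acetophenone gave 0.02 ± 0.063. In OC mice it stood at 74.95, 92.6 and 81 CPM without odor, at 112, 116 and 117.5 after octanal, at 104, 97.1 and 114 after cis-3-hexenol, and at 132, 105 and 120 after the mixture. All 9 exposed mice lay above all 3 controls, and Sgk1 rose by 0.47 ± 0.091 after octanal (adjusted p = 0.00142), by 0.35 ± 0.091 after cis-3-hexenol (adjusted p = 0.0241) and by 0.52 ± 0.091 after the mixture (adjusted p = 0.00105). These 3 comparisons share their 3 controls.

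The octanal and OC mixture calls of Sgk1 held in each of the 6 fits that left out 1 library. For cis-3-hexenol the call was lost without OC control 1 (log2 0.29, adjusted p = 0.087), OC control 3 (0.34, 0.059), cis-3-hexenol 1 (0.35, 0.063) or cis-3-hexenol 3 (0.28, 0.13). For decanal it was lost without AD control 1 (-0.2, 0.081), AD control 3 (-0.19, 0.092), decanal 1 (-0.21, 0.064) or decanal 2 (-0.2, 0.066), and the AD mixture passed without AD mixture 3 (-0.24, 0.018). The level of Sgk1 in all exposed OC groups (97.1 to 132 CPM) overlapped that of the decanal and mixture mice in the other batch, which was scaled separately, while the 2 sets of controls lay apart.

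Zbtb16 (ENSMUSG00000066687) encodes a zinc-finger repressor also known as PLZF, strongly raised by glucocorticoids in several cell types. Its level in AD mice was 2.44, 0.9015 and 1.67 CPM without odor, 0.851, 2.43 and 2.12 after acetophenone, 2.96, 3.92 and 4.75 after decanal, and 2.61, 3.13 and 2.52 after the mixture. Both decanal and mixture mice lay above all controls. It rose 2.31-fold after decanal (log2 1.2 ± 0.35, adjusted p = 0.0223), while the log2 fold change of 0.71 ± 0.36 after the mixture was not called (adjusted p = 0.185). The decanal call was lost without AD control 2 (log2 0.91, adjusted p = 0.092), AD control 3 (1.2, 0.065), decanal 2 (1.17, 0.053) or decanal 3 (1.01, 0.1). In OC mice the level was 1.47, 1.11 and 2.51 CPM without odor, 0.672, 1.7 and 1.47 after octanal, 1.88, 1.09 and 2.3 after cis-3-hexenol, and 1.59, 1.66 and 0.691 after the mixture. All groups overlapped there and none was called. The interval for octanal ran from -1.29 to 0.49.

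Klf9 (ENSMUSG00000033863) encodes a Krüppel-like transcription factor and is a direct early target of the receptor. Its CPM values in AD mice were 69, 64.6 and 59.8 without odor, 51.6, 61.5 and 67.7 after acetophenone, 75.8, 61.3 and 71.2 after decanal, and 81.2, 67.2 and 74.6 after the mixture. The exposed groups overlapped the control, and the log2 fold change for the mixture, 0.21 ± 0.099, was not called (adjusted p = 0.161). In OC mice they were 77, 65.7 and 104 without odor, 57.8, 58.85 and 51.6 after octanal, 67.6, 57.7 and 61.3 after cis-3-hexenol, and 61.4, 62.2 and 59.2 after the mixture. Octanal and mixture mice lay below every control mouse, and 1 cis-3-hexenol mouse overlapped them. The log2 level of Klf9 fell by 0.55 after octanal (SE 0.12, adjusted p = 0.00399), by 0.4 after cis-3-hexenol (SE 0.12, adjusted p = 0.0451) and by 0.43 after the mixture (SE 0.12, adjusted p = 0.0188), against the same 3 controls. OC control 3, at 104 CPM, was the highest library of the batch. Without it the octanal fold change shrank to -0.35 (adjusted p = 0.0095), still called, while the mixture (log2 -0.22, adjusted p = 0.081) and cis-3-hexenol (-0.19, 0.19) were no longer called. The mixture call was also lost without OC mixture 1 (-0.43, 0.064) or OC mixture 3 (-0.41, 0.062). For cis-3-hexenol the same happened without OC control 1 (-0.44, 0.062), cis-3-hexenol 1 (-0.47, 0.064), cis-3-hexenol 2 (-0.34, 0.17) or cis-3-hexenol 3 (-0.39, 0.14).

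Cdkn1a (ENSMUSG00000023067) encodes the cyclin-dependent kinase inhibitor p21, which glucocorticoids raise in several cell types and which p53 also controls. In AD mice it stood at 109, 112 and 107 CPM without odor, at 108, 118 and 106 after acetophenone, at 129.5, 129 and 140 after decanal, and at 125, 115 and 136 after the mixture. All 6 mice that inhaled decanal, alone or mixed, lay above all 3 controls. Cdkn1a rose by 0.28 ± 0.061 on the log2 scale after decanal (adjusted p = 0.00366) and by 0.2 ± 0.061 after the mixture (adjusted p = 0.0274). The decanal call held without any 1 library; the mixture call was lost without AD control 1 (0.2, adjusted p = 0.082), 2 (0.22, 0.055) or 3 (0.18, 0.11) and without AD mixture 1 (0.19, 0.079) or 3 (0.12, 0.17). In OC mice the direction was the opposite, at 148, 142.5 and 161 CPM without odor, 127, 117 and 145 after octanal, 143.5, 139 and 137 after cis-3-hexenol, and 135.5, 144 and 130 after the mixture. Each exposed group there overlapped the control. Cdkn1a fell by 0.21 after octanal (SE 0.078, adjusted p = 0.0495), at the edge of the threshold, and the -0.11 ± 0.078 after cis-3-hexenol and -0.14 ± 0.078 after the mixture were not called. It was not called with length and GC offsets (-0.17, adjusted p = 0.118), nor by several other settings. The octanal call was lost without OC control 1 (-0.21, 0.091), OC control 3 (-0.16, 0.17), octanal 1 (-0.18, 0.17) or octanal 2 (-0.13, 0.27).

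Ddit4 (ENSMUSG00000020108), also called REDD1, blocks the growth kinase complex mTORC1 and responds to glucocorticoids, low oxygen and energy stress. Its AD values were 12.1, 12.9 and 13.1 CPM without odor, 12.5, 12.7 and 11.6 after acetophenone, 10.65, 8.545 and 12.9 after decanal, and 14.1, 11.3 and 12.1 after the mixture. Its OC values were 12.6, 12.8 and 8.48 without odor, 10.9, 9.89 and 8.28 after octanal, 9.465, 8.65 and 9.49 after cis-3-hexenol, and 10.5, 9.57 and 10.05 after the mixture. The overlap of decanal with its control rested on decanal 3, and in the OC batch all overlap rested on OC control 3. The log2 fold changes against control lay between -0.29 and -0.02, all below 0, and none was called (adjusted p from 0.182 to 0.963). Without OC control 3, the low one at 8.48 CPM, Ddit4 passed for octanal (-0.38, adjusted p = 0.032) and cis-3-hexenol (-0.45, 0.039), and without decanal 3 it passed for decanal (-0.42, 0.026).

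**Figure D2:**
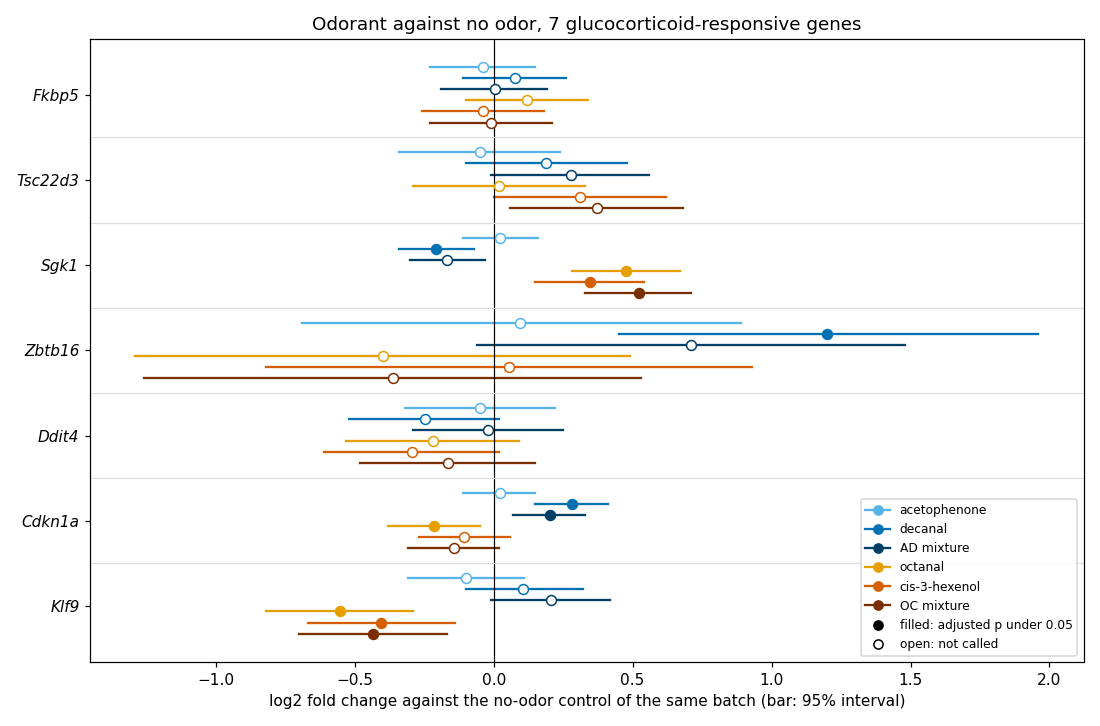
Log2 fold change of each member (rows) against the no-odor control of its own batch, with 95% intervals as bars, 1 colour per odorant group and filled points where the adjusted p was under 0.05. Sgk1 lies below 0 after decanal (-0.21) and above 0 after all 3 OC exposures (0.35 to 0.52), and Cdkn1a and Klf9 show the reverse order; the 3 points of a batch share their controls.

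By group, the 7 members gave the following calls, read against the share of all tested genes called in the same comparison. Acetophenone called 0 of 7, with 0.00512% of 19525 genes called; edgeR gave 0 members at an unadjusted p under 0.05 and DESeq2 called 0. Decanal called 3 of 7 (Zbtb16 and Cdkn1a higher, Sgk1 lower) against 23.9% of all genes, and the AD mixture 1 of 7 (Cdkn1a higher) against 22.3%. Octanal called 3 of 7 (Sgk1 higher, Klf9 and Cdkn1a lower) against 29.4% of 19175 genes, cis-3-hexenol 2 of 7 (Sgk1 higher, Klf9 lower) against 12.2%, and the OC mixture the same 2 of 7 against 24.2%. In all, 11 of 42 tests of a member against its control passed. Over such high backgrounds the counts do not set the members apart from other genes. Their median log2 fold change was -0.04 after acetophenone, 0.11 after decanal and 0.2 after the AD mixture, and -0.21 after octanal, -0.04 after cis-3-hexenol and -0.14 after the OC mixture, where the medians of all tested genes lay between -0.02 and 0.01. No group had Fkbp5, Tsc22d3 and Sgk1 called together in 1 direction.

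Direct comparisons between odorants of a batch followed the same lines. Decanal against acetophenone called 3 of 7 members, with 27% of all genes called: Sgk1 was lower (log2 -0.23 ± 0.063, adjusted p = 0.0129), Zbtb16 higher (1.11 ± 0.35, 0.029) and Cdkn1a higher (0.26 ± 0.061, 0.00535). The AD mixture against acetophenone called 3 of 7 against 25.3%, with Sgk1 lower (-0.19 ± 0.063, 0.0351) and Cdkn1a (0.18 ± 0.061, 0.0428) and Klf9 (0.3 ± 0.1, 0.0354) higher. Of these, Cdkn1a after decanal held in each fit without 1 library. Sgk1 was lost for decanal without acetophenone 2 (-0.21, adjusted p = 0.057) or 3 (-0.22, 0.05), and Zbtb16 without acetophenone 1 (0.77, 0.099) or 3 (1.23, 0.05) or decanal 2 (1.09, 0.066) or 3 (0.92, 0.12). For the mixture, Sgk1 was lost without acetophenone 2 or 3 or AD mixture 1 or 2 (-0.18 to -0.16, adjusted p 0.085 to 0.12). There, Cdkn1a was lost without acetophenone 1 or 3 or AD mixture 1 or 3 (0.11 to 0.17, 0.097 to 0.22), and Klf9 without acetophenone 1 or 2 or AD mixture 1 or 3 (0.2 to 0.31, 0.078 to 0.15). Ddit4 (decanal without decanal 3, -0.37, adjusted p = 0.044) and Tsc22d3 (mixture without acetophenone 2, 0.44, 0.045) were gained against acetophenone.

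No member differed between the AD mixture and decanal (0 of 7, 0% of all genes called; 0 members at an unadjusted p under 0.05 and 0 by DESeq2). Between the OC exposures no member was called either: cis-3-hexenol against octanal (0 of 7, 0%), the OC mixture against octanal (0 of 7, 0%) and the OC mixture against cis-3-hexenol (0 of 7, 0%). At an unadjusted p under 0.05 these 3 gave 0, 1 and 0 members, and DESeq2 called 0 in each. The 1 was Tsc22d3, higher in the OC mixture (log2 0.35, interval 0.04 to 0.66, adjusted p = 0.321), where the mixture mice did not overlap the octanal mice. For Sgk1 the interval of the difference was -0.09 to 0.17 between the AD mixture and decanal and -0.15 to 0.24 between the OC mixture and octanal.

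The contrast between batches was tested as a difference of differences over 20018 genes. The octanal response minus the decanal response differed for 4 of 7 members, with 39.2% of all genes called, and the mean response to the 3 OC exposures minus the mean response to the 3 AD exposures differed for 3 of 7, with 34.5% called. Sgk1 was higher in both, at 0.66 ± 0.12 (adjusted p = 9.05e-05) and 0.55 ± 0.096 (adjusted p = 0.000104). Klf9 and Cdkn1a were lower in both, and Zbtb16 in the first. Without OC control 3 the values of Klf9 shrank from -0.68 to -0.45 (adjusted p = 0.016) and from -0.55 to -0.33 (adjusted p = 0.04). Fkbp5 gave 0.03 ± 0.14 and 0 ± 0.11 and Tsc22d3 gave -0.19 ± 0.22 and 0.08 ± 0.18, none called. Batch and odorant set coincide in this design, so a batch effect on the response and an effect of the odorants cannot be told apart.

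Transcripts of other cell types moved with these members. After decanal all 6 red-cell markers were higher, with a summed level of 1470 to 1760 CPM against 345 to 450 in the AD control and 1260 to 1780 in the AD mixture. In the same comparison 7 of 8 marrow markers, 6 of 8 leukocyte markers, 2 of 5 bone markers and all 9 mitochondrial transcripts were higher (the last summing to 6840 to 7270 CPM against 2130 to 2540), and 4 of 6 neuronal and 3 of 5 sustentacular markers were lower. In the OC batch the control was the high group: red-cell markers summed to 1500 to 3100 CPM there and to 516 to 792 after octanal, 908 to 1390 after cis-3-hexenol and 599 to 1270 after the mixture. After octanal 6 of 6 red-cell, 7 of 8 marrow, 4 of 5 bone, 5 of 8 leukocyte and 9 of 9 mitochondrial transcripts were lower, and 3 of 5 sustentacular markers were higher. Neuronal markers split there: Omp was lower (log2 -0.45), Adcy3, Cnga2, Cngb1 and Ano2 were higher, and Gnal was not called. The mitochondrial sum was 3490 to 4290 CPM after octanal and 5950 to 8210 in the OC control. It overlapped that control after cis-3-hexenol (6630 to 7370) and the OC mixture (4320 to 7810). Over all tested genes 23.9% were called after decanal, 29.4% after octanal, 12.2% after cis-3-hexenol and 24.2% after the OC mixture. Endothelial markers summed to 51.1 to 55.8 CPM in the OC control and to 28.9 to 38.6 CPM in its exposed groups, with 2 of 4 called lower in each. The 2 were Cldn5 and Cdh5, while Kdr and Pecam1 were not called. Cldn5 was the largest part of the sum, at 37 CPM in the OC control and 17.6 CPM after octanal, where Kdr stood at 9.44 and 9.71 CPM. None of the listed cell-type markers was at 0 in all libraries of a group, except Myh4 of the muscle list, which was at 0 in 7 of the 8 groups.

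With each batch centred on its mean, Sgk1 had an r of -0.866 with the summed endothelial markers over 24 libraries (-0.468 in the AD and -0.952 in the OC batch, 12 libraries each) and of -0.653 with the red-cell sum (-0.834 and -0.753). Cldn5 was the largest part of the endothelial sum, and the relation to each endothelial marker alone was not tested. Cdkn1a had an r of 0.715 with the red-cell sum (0.752 and 0.657) and of 0.787 with the mitochondrial sum (0.878 and 0.608), and Klf9 of 0.553 with the red-cell sum (0.559 and 0.682). Zbtb16 had 0.554 with the red-cell sum (0.549 and 0.588). Fkbp5 had -0.0306 (0.19 and -0.379) and Tsc22d3 0.224 (0.436 and -0.0947) with the red-cell sum. Among mice of a group, with group means removed, the red-cell r was -0.326 for Sgk1 (-0.479 in the AD and -0.241 in the OC batch). It was -0.0142 for Cdkn1a (-0.343 and 0.226), -0.139 for Klf9 (-0.456 and 0.0888) and 0.0701 for Zbtb16 (-0.706 and 0.692). Fkbp5 had -0.436 (-0.654 and -0.265) and Tsc22d3 had -0.288 (-0.807 and 0.155) within groups. With the sustentacular sum Fkbp5 had 0.39 and Tsc22d3 0.526 within groups, and with the leukocyte sum -0.412 and -0.492. There, Cdkn1a had 0.334 with the mitochondrial sum and Sgk1 had -0.642 with the endothelial sum. The points share libraries and groups, and the part of these cell types in the calls of Sgk1, Zbtb16, Cdkn1a and Klf9 was not tested.

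The receptor side of the pathway was described over 13 genes, of which 12 were tested. Nr3c1, the glucocorticoid receptor, stood at 57.7 ± 2.99 CPM (SD, n = 3) in the AD control and at 53.7 to 58.3 CPM on average after AD exposures, with no call. In the OC control it was 66.1, 61.9 and 85.1 CPM, above every one of the 9 exposed mice of that batch (54 to 59.6 CPM). Its log2 level fell by 0.33 after octanal (SE 0.096, adjusted p = 0.0173), cis-3-hexenol (SE 0.097, adjusted p = 0.036) and the OC mixture (SE 0.096, adjusted p = 0.0215), and the mouse at 85.1 CPM was again OC control 3. Without that mouse Nr3c1 was called in none of the 3 (log2 -0.18, -0.17 and -0.17, adjusted p = 0.066, 0.13 and 0.086). The calls were also lost without octanal 1 (-0.31, 0.065) or 3 (-0.31, 0.057), cis-3-hexenol 1 (-0.3, 0.12), 2 (-0.36, 0.072) or 3 (-0.32, 0.13), or OC mixture 1 (-0.29, 0.1). Nr3c2, the mineralocorticoid receptor, stood at 19.7 ± 3.51 CPM in the OC control and at 15.8 ± 0.88 CPM after octanal, where it was called (log2 -0.32 ± 0.11, adjusted p = 0.0434); that call was lost without OC control 1 (-0.29, 0.11) or 3 (-0.19, 0.2) or octanal 1 (-0.29, 0.14), 2 (-0.28, 0.14) or 3 (-0.36, 0.055). Without OC control 2 it passed for cis-3-hexenol (-0.44, 0.008) and the OC mixture (-0.42, 0.0059). Hsd11b1, which regenerates corticosterone, was at 2.03 to 3.04 CPM on average in the 8 groups and not called in any, and Hsd11b2, which inactivates it, was below the filter. Of the whole list, 0 genes were called after acetophenone (edgeR; 3 at an unadjusted p under 0.05, 0 by DESeq2), 0 were higher and 1 lower after decanal (Ncoa1, a receptor coactivator, log2 -0.55 ± 0.059), 0 and 2 after the AD mixture, 1 and 5 after octanal, 0 and 2 after cis-3-hexenol, and 0 and 3 after the OC mixture. From decanal to the OC mixture, in that order, 23.9%, 22.3%, 29.4%, 12.2% and 24.2% of all tested genes were called. Ncor1, a corepressor, was lower after octanal and the OC mixture, by 0.47 and 0.46.

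A further 30 genes known to be raised by glucocorticoids were described, of which 29 were tested. After acetophenone edgeR called 0 of the 29 (4 at an unadjusted p under 0.05, 0 by DESeq2). After decanal 4 were higher and 7 lower (37.9% called), after the AD mixture 3 and 5 (27.6%), after octanal 5 and 5 (34.5%), after cis-3-hexenol 3 and 2 (17.2%), and after the OC mixture 6 and 4 (34.5%). In the same order 23.9%, 22.3%, 29.4%, 12.2% and 24.2% of all genes were called. The medians of the 29 lay between -0.17 and 0.1 on the log2 scale, so the list moved in both directions in every comparison with calls. The metallothioneins Mt1 and Mt2, which bind zinc and copper, rose after decanal (0.42 ± 0.061 and 0.47 ± 0.066) and after the AD mixture (0.46 ± 0.061 and 0.62 ± 0.066). In the same groups Pdk4, which holds back glucose oxidation, fell by 0.63 and 0.55, Fbxo32, a ligase of muscle wasting, by 0.43 and 0.4, and the arrestin-domain gene Arrdc3 by 0.34 and 0.27.

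With batch means removed, 6 of the 29 (20.7%) had an r above 0.5 with Sgk1, where 17.3% of all genes did, and the median r of the 29 was -0.303. Arrdc3, Tiparp, Nedd9 and Bcl6 were lower after decanal and higher after octanal, as Sgk1 was. These and Dusp1, named next, are not typical of the list. Arrdc3 rose by 0.49 ± 0.088 after octanal, 0.42 ± 0.088 after cis-3-hexenol (lost without cis-3-hexenol 3, 0.34, adjusted p = 0.062) and 0.45 ± 0.088 after the OC mixture. Tiparp, an ADP-ribosyltransferase, rose by 0.57, 0.49 and 0.52 there and fell by 0.31 after decanal, a call lost without AD control 1 (-0.28, 0.061) or 3 (-0.28, 0.062). Nedd9, a scaffold protein, fell by 0.43 after decanal and rose by 0.79 after octanal, and the repressor Bcl6 fell by 0.54 and rose by 0.57. Dusp1, a phosphatase that shuts off stress kinases and a classic early target, stood at 92 ± 5.54 CPM in the OC control. It rose to 120 ± 6.14 CPM after octanal (log2 0.38 ± 0.08, adjusted p = 0.00274), 115 ± 11.5 after cis-3-hexenol (0.32 ± 0.081, adjusted p = 0.0197) and 121 ± 9.39 after the mixture (0.39 ± 0.08, adjusted p = 0.00273), and it was not called in the AD batch. The cis-3-hexenol call of Dusp1 was lost without OC control 3 (0.3, 0.058), cis-3-hexenol 1 (0.29, 0.075) or cis-3-hexenol 3 (0.27, 0.11). Others in the OC batch were lower, as Klf9 was: the small GTPase Rhob fell by 0.4 after cis-3-hexenol and 0.36 after the mixture, and Cebpd, an acute-phase transcription factor, by 0.63 after octanal. Per1, a clock gene with a well-known receptor element, averaged 11.4 to 15.7 CPM in the 8 groups. In the OC batch all 9 exposed mice (9.1 to 13.6 CPM) lay below all 3 controls (14.1 to 17.6 CPM), with log2 fold changes of -0.33, -0.45 and -0.35 after octanal, cis-3-hexenol and the mixture. None passed (adjusted p = 0.105, 0.0573 and 0.0937), nor did Per1 in the AD batch (-0.08 to 0.1).

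**Figure D3:**
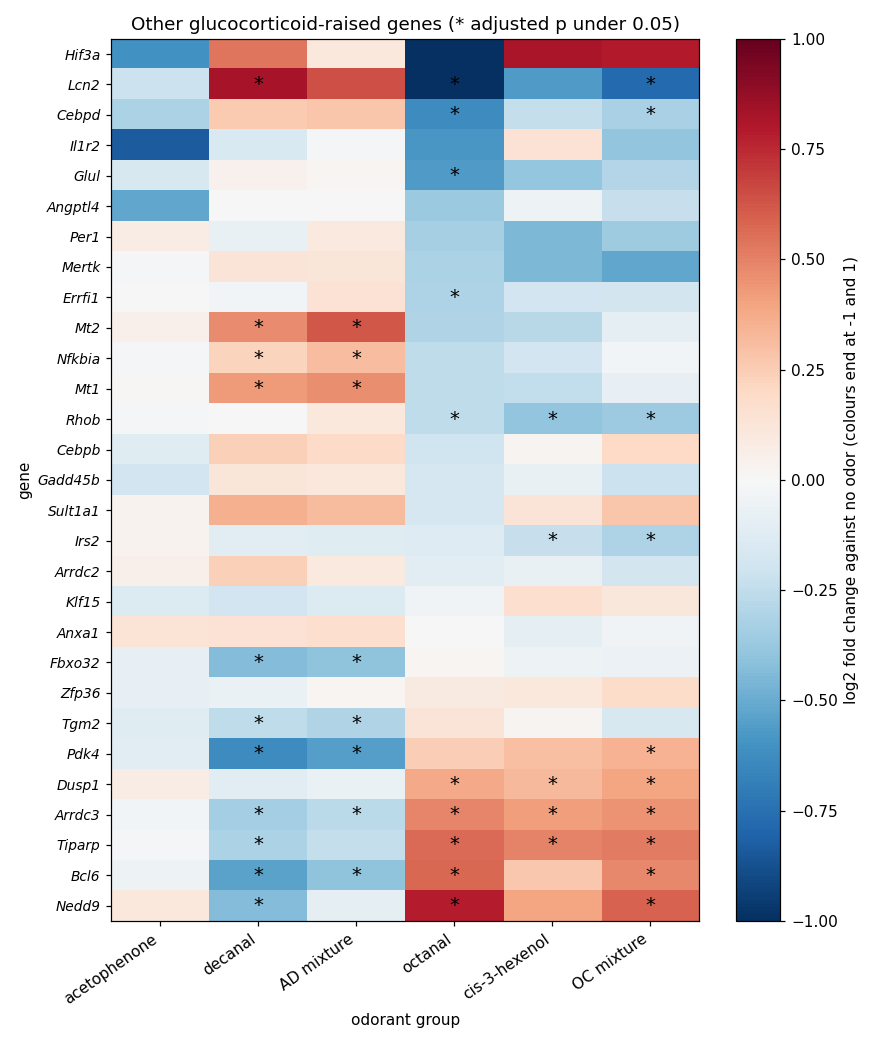
Log2 fold change of the 29 tested genes known to be raised by glucocorticoids (rows, ordered by the octanal value) against the control of their batch for the 6 exposures (columns); red is higher, blue lower, and an asterisk marks an adjusted p under 0.05. Arrdc3, Tiparp, Bcl6 and Nedd9 are blue after decanal and red after octanal, and Mt1 and Mt2 are red and starred after decanal (0.42 and 0.47) and the AD mixture.

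A list of genes downstream of Sgk1 or related to it was described together with Tsc22d1, Tsc22d2 and Tsc22d4, relatives of Tsc22d3. These genes were called at shares near those of all genes. The shares were 20% after decanal, 30% after the AD mixture, 30% after octanal, 10% after cis-3-hexenol and 30% after the OC mixture. In that order 23.9%, 22.3%, 29.4%, 12.2% and 24.2% of all tested genes were called, which is the background for the other lists here too. The higher call after the AD mixture and the call after cis-3-hexenol were Tsc22d1. Of 10 tested, 0 were higher and 2 lower after decanal, 1 and 2 after the AD mixture, 3 and 0 after octanal, 1 and 0 after cis-3-hexenol and 2 and 1 after the OC mixture. Sgk3, a close relative of the kinase, rose by 0.4 ± 0.1 after octanal and 0.46 ± 0.1 after the OC mixture. Tsc22d1, a relative of Tsc22d3, rose after the AD mixture (0.37 ± 0.071) and after octanal (0.44 ± 0.087), cis-3-hexenol (0.35 ± 0.087) and the OC mixture (0.56 ± 0.087), of which the cis-3-hexenol call was lost without cis-3-hexenol 1 (0.27, adjusted p = 0.089) or 3 (0.37, 0.063). Ndrg1, a substrate of the kinase, fell by 0.27 after decanal and after the AD mixture. Around Cdkn1a, 12 targets of p53 gave 1 higher and 1 lower after decanal, 2 and 2 after the AD mixture, 3 and 2 after octanal, 1 and 1 after cis-3-hexenol and 1 and 3 after the OC mixture. Bax, which promotes cell death, moved with Cdkn1a (0.32 ± 0.056 after decanal, -0.3 ± 0.077 after octanal, the latter lost without OC control 1 at adjusted p = 0.055 or octanal 2 at 0.054, with log2 -0.21 and -0.26), and the cyclin Ccng1 moved the other way (-0.23 ± 0.05 and 0.55 ± 0.064). Around Ddit4, 10 hypoxia targets gave 0 calls after decanal (edgeR; 2 at an unadjusted p under 0.05, 0 by DESeq2), 0 higher and 1 lower after the AD mixture, 0 and 2 after octanal, 0 and 2 after cis-3-hexenol, and 1 and 4 after the OC mixture, where DESeq2 called 2 of the 10. Further, 9 targets of the integrated stress response gave 2 higher and 1 lower after decanal, among them Atf4 (0.21 ± 0.051), 1 and 1 after the AD mixture, 1 and 1 after octanal, 0 and 1 after the OC mixture, and 0 calls after cis-3-hexenol (edgeR; 0 at an unadjusted p under 0.05, 0 by DESeq2).

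Mice of 1 group also differed from each other, and some members did so together. With every library taken as its log2 difference from the mean of its group, Tsc22d3 and Fkbp5 had a Pearson r of 0.664 over 24 libraries (Spearman 0.642, with 0.638 within the AD and 0.687 within the OC batch). Tsc22d3 and Klf9 had 0.68 (Spearman 0.697, 0.786 and 0.602 by batch), and Tsc22d3 and Zbtb16 had 0.663 (Spearman 0.707, 0.683 and 0.647). Without the 2 libraries farthest from the median of 1 gene of the pair these were 0.587, 0.538 and 0.541. That gene was Fkbp5 for the pair with Fkbp5 and Tsc22d3 for the pairs with Klf9 and Zbtb16. Fkbp5 and Klf9 gave 0.505, and 0.338 without the 2 farthest. Sgk1 with Klf9 gave -0.0604 within groups, where between groups of a batch they went apart (-0.637 with batch means removed, and -0.404 without the 2 farthest). Over both batches Ddit4 had no r above 0.217 with any other member. Its values by batch lay apart for some pairs, which was not tested. In the AD and the OC batch it had 0.462 and -0.69 with Cdkn1a, 0.35 and -0.569 with Klf9, and 0.372 and -0.173 with Fkbp5. With Zbtb16 it had -0.0596 and -0.482, with Tsc22d3 0.0993 and -0.293, and with Sgk1 0.23 and 0.213. OC control 3 weighed on the OC values, at -0.384 from the group mean for Ddit4 and 0.368 for Klf9. Without the 2 libraries farthest in Ddit4, its r over both batches went from -0.191 to -0.00221 with Klf9 and from -0.212 to -0.158 with Cdkn1a. The libraries share their scaling, and 24 points with 8 means removed are not 24 independent values.

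In some mice most members deviated in 1 direction. All 7 members lay above the group mean in acetophenone 2 and in decanal 3, and all 7 below it in cis-3-hexenol 2. Some did so by almost nothing, such as Fkbp5 in decanal 3 (log2 0.000195) and Cdkn1a in cis-3-hexenol 2 (-0.00599). In acetophenone 1, decanal 2, AD mixture 2 and OC control 1 there were 6 below, and in OC mixture 1 there were 6 above. Within the acetophenone group Tsc22d3 had a coefficient of variation of 24.2% and Klf9 of 13.5%, against 3.84% for Tsc22d3 after decanal. In the OC control these were 21.3% and 24.2%.

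**Figure D4:**
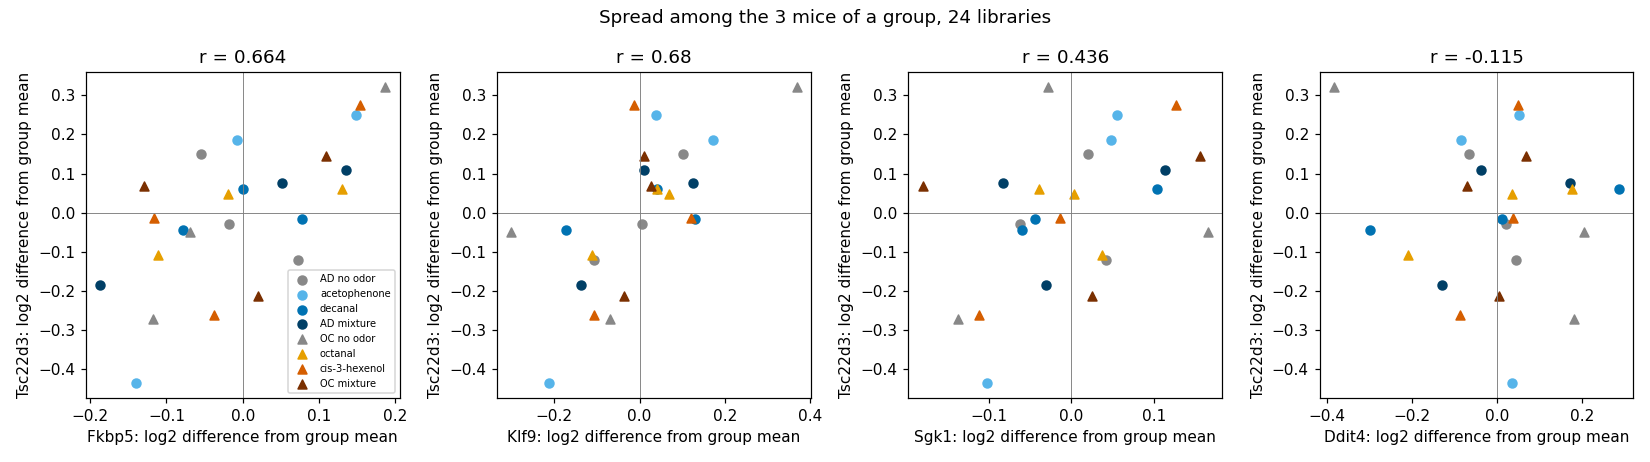
Each point is 1 library, placed by its log2 difference from the mean of its own group for Tsc22d3 (vertical axis) and for Fkbp5, Klf9, Sgk1 or Ddit4 (horizontal axis); circles are AD and triangles OC libraries. Tsc22d3 rises with Fkbp5 (r = 0.664) and Klf9 (r = 0.68), less with Sgk1 (r = 0.436) and not with Ddit4 (r = -0.115).

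Some of the other glucocorticoid-raised genes also varied with members among mice of a group. For Tsc22d3, 10 of the 29 (34.5%) had an r above 0.5, where 3.33% of 20011 genes did. For Klf9 it was 8 (27.6%, with 5.59% of all genes) and for Fkbp5 4 (13.8%, with 2.25%). For Sgk1 it was 1 (3.45%, with 3.82%), for Zbtb16 3 (10.3%, with 3.25%), for Ddit4 2 (6.9%, with 4.41%) and for Cdkn1a 2 (6.9%, with 4.44%). The genes above 0.5 with Tsc22d3 were Sult1a1 (0.768), Klf15 (0.757), Anxa1 (0.749), Errfi1, Nfkbia, Per1, Glul, Tiparp, Nedd9 and Hif3a. These are counts over shared libraries and carry no test, and the list was chosen with earlier results of these data known. Within groups Tsc22d3 also had an r of 0.526 with the sustentacular sum and of -0.492 with the leukocyte sum. The part of cell types in these counts was not tested. The relation to hormone levels in these mice was not analysed here.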

How the data were processed

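The authors deposited 2 tables of expected counts per Ensembl gene, 1 per batch, of which 12.8% (AD) and 12.6% (OC) of values were not whole. The submitters' processing notes name STAR 2.7.10b, Salmon 1.10.1, R 4.4.2 and build GRCm39; which tool made the counts, and the annotation release, are not given in the sources used here. Libraries were made with a stranded mRNA kit, per the labels' protocols. Counts were rounded, and symbols and transcript lengths came from GENCODE M21, matching 52029 of 57010 identifiers.

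Each batch was fitted on its own (12 libraries, 4 groups) with edgeR 4.0.16 in R 4.3.3: filterByExpr, TMM scaling, the two-sided quasi-likelihood F test and Benjamini-Hochberg adjustment over all genes tested, called at 0.05. A ± beside a log2 fold change is its standard error, beside a CPM level the SD of 3 mice. Differences between responses came from 1 fit of all 24 libraries with a term for each group. Relations between libraries used log2 CPM with a prior count of 2. Alternatives were DESeq2 1.42.0 and its size factors, other low-count filters, length and GC offsets, a replicate block, fits of only the 6 libraries compared, and leaving out each library. The scripts were tested on simulated counts. Replicate numbers did not pair mice across groups: same-number correlations ran from -0.173 to 0.217, and in 0 of 12 comparisons were all 3 over 0.1. No 2 replicates were duplicates (chi-square per gene 5.27 to 112).

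The members and gene lists were chosen with earlier results of these data known. Named besides the members were Nr3c1, Nr3c2, Hsd11b1, Per1 and Dusp1, up to 4 called genes of smallest p for each list and comparison, and the 3 genes most like each member, of which 1 is not reported here; the genes listed beside Tsc22d3 for their r were chosen after their values were seen.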

Additional observations from a re-analysis of the deposited data

Results flagged for a closer look

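The response of 4 members differed between octanal and decanal, each against its own control, by the test of the difference over all 24 libraries. Sgk1 rose after octanal (log2 0.47) and fell after decanal (-0.21), a difference of 0.66 ± 0.12 (SE, adjusted p = 9.05e-05). Klf9 differed by -0.68 ± 0.17 (adjusted p = 0.00275), with -0.55 after octanal and 0.11 after decanal. Cdkn1a differed by -0.52 ± 0.1 (adjusted p = 0.000316), with -0.21 and 0.28. Zbtb16 differed by -1.62 ± 0.58 (adjusted p = 0.0295), with -0.4 and 1.2, and that call was lost without AD control 2 (-1.3, 0.089), AD control 3 (-1.59, 0.055), decanal 3 (-1.42, 0.078), OC control 3 (-1.21, 0.13) or octanal 1 (-1.29, 0.094).

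The mean response to the 3 OC exposures minus that to the 3 AD exposures differed for Sgk1 by 0.55 ± 0.096 (adjusted p = 0.000104), for Cdkn1a by -0.33 ± 0.084 (adjusted p = 0.00326) and for Klf9 by -0.55 ± 0.14 (adjusted p = 0.00377). These 3 and the octanal-decanal differences of Sgk1, Klf9 and Cdkn1a stayed called in every fit that left out 1 library, but without OC control 3 Klf9 shrank from -0.68 to -0.45 and from -0.55 to -0.33. Over all genes 39.2% differed in the first test and 34.5% in the second, and batch and odorant set cannot be told apart.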

How the results depend on the processing

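No called member changed direction under any alternative. Of the members' fold changes and alternatives, 1352 kept their side of the threshold, 73 were lost, 25 were gained and 76 uncalled values changed sign. Sgk1 passed for the AD mixture without a low-count filter, with DESeq2, with the replicate block and with length and GC offsets (log2 -0.21 to -0.17, adjusted p 0.0082 to 0.044). Cdkn1a for octanal was lost under DESeq2 size factors, no filter, the replicate block, length and GC offsets and the 6 libraries compared (-0.22 to -0.17, adjusted p 0.058 to 0.13). Klf9 for cis-3-hexenol was lost under DESeq2 size factors (-0.4, 0.0501), the replicate block and the 6 libraries compared, and Zbtb16 for octanal minus decanal under the replicate block (-1.57, 0.055).

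Without a low-count filter, genes called rose to 300 for acetophenone, 132 for the AD mixture against decanal, 581 for cis-3-hexenol against octanal, 475 for the OC mixture against octanal and 188 for it against cis-3-hexenol; members called were 4 for the AD mixture, 5 for decanal against acetophenone, and 1 each for cis-3-hexenol and the OC mixture against octanal. The DESeq2 test called 30 genes for acetophenone, 2 for the AD mixture against decanal, 240 for cis-3-hexenol and 222 for the OC mixture against octanal, 16 for the OC mixture against cis-3-hexenol, and 2 members for the AD mixture. With DESeq2 size factors cis-3-hexenol kept 1 member.

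With the replicate block, 2 members were called for the AD mixture, 1 for cis-3-hexenol, and 6 genes for cis-3-hexenol against octanal. Length and GC offsets gave 2 members for the AD mixture and 1 gene for it against decanal; with the replicate block as well they gave 1 gene there, 0 members and 1402 genes for cis-3-hexenol, and 20 genes for it against octanal. These offsets reversed Irs2 after the OC mixture (0.001366, and 0.002491 with the block), the octanal-decanal difference of Tsc22d4 (0.1876, 0.189) and Bbc3 (0.1219, 0.124), and the mean difference of Cebpb (0.2446, 0.2469) and Bbc3 (0.02824, 0.02644); the cause was not tested.

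With only the 6 libraries compared, acetophenone called 5 genes, the AD mixture 0 members, cis-3-hexenol 0 members and 1047 genes, the OC mixture 1 member and 2816 genes, and cis-3-hexenol against octanal 803 genes. Fewer libraries then estimate the spread.

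Leaving out 1 library gave 0 to 39 genes for acetophenone, 533 to 3150 for cis-3-hexenol, 3035 to 4960 for the OC mixture, 0 to 1 for the AD mixture against decanal, for cis-3-hexenol against octanal and for the OC mixture against cis-3-hexenol, and 0 to 23 for the OC mixture against octanal. Members called then ran from 1 to 3 for decanal and for decanal against acetophenone, 0 to 1 for the AD mixture, 0 to 2 for it against acetophenone, 2 to 3 for octanal, 0 to 2 for cis-3-hexenol, 1 to 2 for the OC mixture and 3 to 4 for octanal minus decanal. Zbtb16 had the fewest counts of the members, 15 to 111 a library.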

Other observations

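Of 13 genes of the circadian clock and its outputs, several moved in opposite directions in the 2 batches. After decanal 0 were higher and 4 lower, after the AD mixture 0 and 4, after octanal 4 and 3, after cis-3-hexenol 1 and 2, and after the OC mixture 2 and 2. In the same order 23.9%, 22.3%, 29.4%, 12.2% and 24.2% of all tested genes were called. The octanal and decanal responses differed for 39.2% of all genes. Nr1d1, a nuclear receptor that represses the clock, fell by 0.59 after decanal (SE 0.062) and by 0.57 after the AD mixture. Cry1, a repressor of the clock, fell by 0.29 after decanal (SE 0.064) and rose by 0.78 ± 0.096 after octanal, 0.57 ± 0.096 after cis-3-hexenol and 0.67 ± 0.096 after the OC mixture. Npas2, a partner of the clock activator, fell by 0.54 after decanal and rose by 0.65 ± 0.15 after octanal. The time of day at which tissue was taken is not given in the labels, and its part in these values was not tested.

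With batch means removed, the genes most like each member over 24 libraries, among 12076 genes with a mean of at least 100 counts in both batches, differed in how close they came. Sgk1 had the closest, Capza2 (r = 0.944), an actin-capping subunit, then Dars (0.942) and Snx14 (0.939), and 25.4% of the genes had an r above 0.5 with it. Cdkn1a had Trappc4 (0.915), Hist2h2aa1 (0.912) and Ssr2 (0.909), with 21.3% above 0.5, and Klf9 had Kctd12 (0.894), Sntb2 (0.887) and Cald1 (0.883), with 18.5%. Zbtb16 had Pam (0.79) and Snrnp48 (0.747), with 7.07%. Tsc22d3 had the sulfotransferase Sult1a1 (0.838), Erp44 (0.765) and Stk17b (0.744), with 2.32%. Ddit4 had Mypop (0.803), Pla2g5 (0.776) and Fbxl14 (0.773), with 1.18%, and Fkbp5 had Trmt10b (0.627), Slc33a1 (0.617) and Fxr1 (0.602), with 0.282%. For the mean of the 7 members the genes were Sult1a1 (0.729), Nfkbia (0.698) and Hprt (0.691). These genes were picked for the highest r, and the values carry no test.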
